A study of Mus musculus with 8 samples.

Results

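Goblet cells are the mucus-secreting cells of the gut epithelium, and 10 of their genes that do not encode mucins are described here: the regulators Atoh1, Spdef and Creb3l1, the endoplasmic reticulum proteins Ern2 and Agr2, and the secreted proteins Tff3, Clca1, Fcgbp, Spink4 and Klk1. They were taken by symbol from a list of goblet cell genes, and all 10 were found once each among the 49585 gene identifiers of the deposited table. Values are FPKM (fragments scaled by gene length and library size), a scale on which levels of genes of unequal length can be set side by side. The libraries came from frozen intestine of 8 C57BL/6 mice, of which 4 had received Klebsiella and 4 Lactobacillus, 2 genera of gut bacteria, according to the labels. Each library is 1 mouse and is named by its group and mouse number. The labels do not state the age or sex of the mice, any other treatment, what material the recipients were given, for how long, or which stretch of gut was taken, and no untreated group was analysed here.

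In the gut, cells that escape Notch signalling switch on the transcription factor ATOH1 and enter the secretory lineage, and SPDEF then drives maturation toward goblet cells. Mature goblet cells fold and store large amounts of the mucin MUC2, which puts a heavy load on the endoplasmic reticulum. AGR2 is a protein disulfide isomerase of that compartment needed for MUC2 production, and ERN2 is the epithelial form of the stress sensor IRE1. CREB3L1 is a transcription factor held in the endoplasmic reticulum membrane and released by cleavage. The secreted products act in or on the mucus: TFF3 is a trefoil peptide of epithelial repair, CLCA1 a metalloprotease of the mucus layer, FCGBP a large mucus protein, SPINK4 a Kazal-type protease inhibitor relative and KLK1 tissue kallikrein, a serine protease.

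Between 40455910 and 55447220 reads per library passed the filter of the authors, and any 2 libraries correlated at 0.949 to 0.976 across genes on the log2 scale. The 6 epithelial markers were above 0 in every library, with summed levels of 4430 to 5745 FPKM in Klebsiella and 4095 to 5137 FPKM in Lactobacillus recipients. Of 3 markers of Paneth cells, a secretory cell of the small intestine, Defa24 reached at most 0.146 FPKM and Mmp7 at most 2.56 FPKM, and Lyz1 lay between 4.47 and 9.36 FPKM. In bulk tissue, fewer cells of a type and less RNA per cell cannot be told apart.

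For 5 of the 10 genes a RefSeq promoter on GRCm38.p6 was at hand: Atoh1, Spdef, Agr2, Fcgbp and Klk1. The promoters of Spdef and Agr2 are shown because these genes had the highest correlation of any pair among the 10 over the 8 libraries, and SPDEF is itself a transcription factor. The 250 bases before the RefSeq start site, which lies some bases inside the GENCODE gene bounds given further on, are printed 5′ to 3′ on the strand of the gene, for Spdef chr17:27728952-27729201 on the minus strand and for Agr2 chr12:35992675-35992924 on the plus strand. Capitals mark matches, on either strand, to GGAT (the core bound by SPDEF), TTTATNG (a core bound by CDX factors) and ACGTG (a core bound by CREB3L1 relatives).
Spdef: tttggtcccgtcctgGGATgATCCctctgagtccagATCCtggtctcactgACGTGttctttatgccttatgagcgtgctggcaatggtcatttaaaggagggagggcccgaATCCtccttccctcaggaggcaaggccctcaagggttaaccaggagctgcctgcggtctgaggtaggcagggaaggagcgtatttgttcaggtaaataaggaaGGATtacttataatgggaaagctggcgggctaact
Agr2: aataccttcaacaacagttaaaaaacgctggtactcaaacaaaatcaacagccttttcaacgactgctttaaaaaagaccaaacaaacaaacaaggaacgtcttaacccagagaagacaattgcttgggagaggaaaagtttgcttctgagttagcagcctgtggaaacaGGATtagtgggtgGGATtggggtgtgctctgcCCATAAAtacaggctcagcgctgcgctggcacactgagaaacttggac

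The Spdef promoter held 5 matches to GGAT and the Agr2 promoter 2. Such a 4-base core is common, and 74.1% of 32851 promoters of the same length had at least 1. Fcgbp had 2 matches, Klk1 had 1 and Atoh1 had 0. The motif TTTATNG was found once among the 5 promoters, 42 to 48 bases before the RefSeq start of Agr2, against 9.81% of all promoters with a match. The motif ACGTG was found once, in Spdef, against 16.6%. Of the E-box letters bound by ATOH1, CAGATG was found once in Klk1 (14.4% of all promoters) and CAGCTG once in Fcgbp (13.0%). No match lies on top of another in the sequences shown. These matches are letters in a short window and do not show binding.

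The 10 genes spanned a wide range of levels. Clca1 had the highest mean, 4182 ± 1981 FPKM (SD, n = 8), and ranked 5 among all 49585 identifiers by mean. Spink4, Tff3, Agr2, Klk1 and Fcgbp followed with means of 2077, 1823, 1354, 1253 and 1041 FPKM. Neighbours in that order were not separated, since each exceeded the next in only 5 to 7 of 8 libraries and all their ranges overlapped. A clear step came below Fcgbp, whose lowest library, 387.7 FPKM, was above the highest of Creb3l1, 122.7 FPKM. Creb3l1 had a mean of 101 FPKM, Spdef of 67.0, Ern2 of 44.5 and Atoh1 of 28.4, so secreted products and Agr2 formed the upper tier and the transcription factors and Ern2 the lower. Creb3l1 exceeded Spdef in 8 of 8 libraries, although their ranges over libraries overlapped. Spdef exceeded Ern2, and Ern2 exceeded Atoh1, in 6 of 8.

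Together the 10 genes made up 1.79% ± 0.202 (SD, n = 4) of all FPKM in Klebsiella recipients, against 1.54% ± 0.470 (SD, n = 4) in Lactobacillus recipients. The lowest share was 0.969% in Lactobacillus replicate 2 and the highest 2.04% in Lactobacillus replicate 1. The difference did not pass a two-sided exact permutation test (p = 0.400, 4 against 4, smallest possible p 0.0286). Clca1 alone was 50.9% of the summed level of the 10 genes in Klebsiella replicate 4 and 13.4% in Lactobacillus replicate 2.

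**Figure D1:**
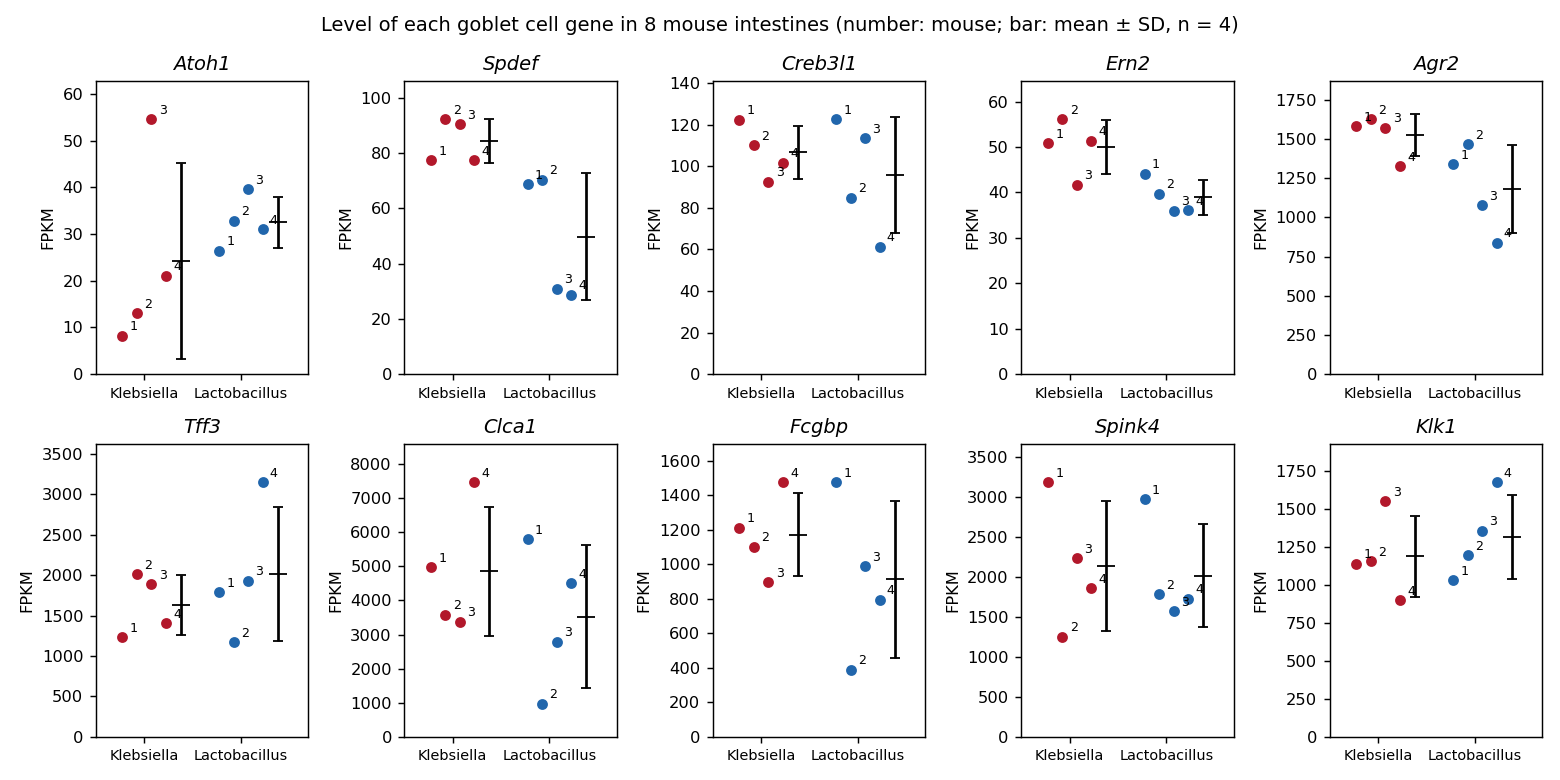
FPKM (vertical axis, linear from 0) of each of the 10 genes in the 4 Klebsiella (red) and 4 Lactobacillus (blue) recipients, with mouse numbers beside the points and a bar for mean ± SD. The Spdef points of the groups do not overlap, while those of the other 9 genes do.

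The comparison of the recipient groups asked which of these genes differed with the bacteria received. Spdef, Creb3l1, Ern2, Agr2, Clca1, Fcgbp and Spink4 had higher means in Klebsiella recipients. Atoh1, Tff3 and Klk1 had lower ones, but none of the 10 genes passed the test. With limma over 16865 genes, 0 of the 10 genes and 0 of all genes (0%) reached an adjusted p below 0.05, and the lowest among the 10 was 0.774. Before adjustment 2 of the 10, Ern2 and Spdef, and 6.07% of all genes had a p under 0.05. The log2 difference was above 0 for 7 of the 10 and for 46.4% of all genes, and its median was 0.28 against -0.017 over all genes. The groups did not overlap for 1 of the 10, Spdef, and for 2.99% of all genes. When levels were set against epithelial genes, as described further on, the log2 difference was above 0 for 5 of the 10. On that scale its median was 0.066, against -0.23 over all genes. This step moved the log2 difference of every gene by the same amount, so the distance of the 10 genes from all genes did not change.

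Among the regulators, Spdef measured 77.4, 92.2, 90.5 and 77.5 FPKM across Klebsiella replicates 1 to 4, against 68.6, 70.3, 30.9 and 28.7 FPKM across Lactobacillus replicates 1 to 4. Every Klebsiella library was thus above every Lactobacillus library, but the gap was narrow for Lactobacillus replicates 1 and 2 and wide for 3 and 4. The means were 84.4 ± 8.05 and 49.6 ± 22.9 FPKM (SD, n = 4 each), and the log2 difference was 0.88 (SE 0.30, 95% interval 0.20 to 1.56, limma adjusted p 0.774). It was 0.69 without Lactobacillus replicate 3 and 0.66 without Lactobacillus replicate 4. Lactobacillus replicate 4 also held the most RNA of fat, with a summed level of 116.6 FPKM over Adipoq, Plin1 and Car3 against 13.3 to 30.2 FPKM in the other Lactobacillus and 1.22 to 10.1 FPKM in the Klebsiella libraries; the part of this in the Spdef values was not tested.

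Atoh1, the first switch of the secretory lineage, varied most among the regulators. It measured 8.24, 13.0, 54.6 and 21.1 FPKM across Klebsiella replicates 1 to 4, against 26.4, 32.9, 39.7 and 31.05 FPKM across Lactobacillus replicates 1 to 4. The Klebsiella libraries held both the lowest and the highest value, with a 6.62-fold range over all libraries, whereas the Lactobacillus libraries were close to each other. From 276 to 1888 reads lay behind these values. Klebsiella minus Lactobacillus, log2 levels differed by -0.75 (SE 0.48, 95% interval -1.85 to 0.34, limma adjusted p 0.776). This difference was -0.37 without Klebsiella replicate 1 and -1.26 without Klebsiella replicate 3, and it was -1.64 with the log2 level of Hoxd13, a posterior Hox gene, as a covariate. Hoxd13 itself measured 46.3, 3.25, 2.20 and 8.03 FPKM across Klebsiella replicates 1 to 4. Across Lactobacillus replicates 1 to 4 it measured 43.9, 19.1, 27.3 and 39.2 FPKM. Its own log2 difference was -1.97 (SE 0.79, limma adjusted p 0.774), so the covariate was not balanced between the groups. The part of this in the Atoh1 values was not tested.

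Gfi1, a transcriptional repressor that acts downstream of ATOH1 in secretory cells, was looked at after its values had been seen. It measured 2.09, 3.73, 7.87 and 2.79 FPKM across Klebsiella replicates 1 to 4, against 3.06, 5.24, 4.93 and 4.37 FPKM across Lactobacillus replicates 1 to 4. As for Atoh1, its lowest value was in Klebsiella replicate 1 and its highest in Klebsiella replicate 3. Hoxb6, a homeobox gene expressed by position along the body, was at 40.2 FPKM in Klebsiella replicate 3 and 45.2 FPKM in Lactobacillus replicate 2, and between 1.16 and 3.87 FPKM elsewhere. In Lactobacillus replicate 2 Atoh1 was the third highest of the 8 libraries and Gfi1 was second only to Klebsiella replicate 3. The part of this in the Atoh1 values was not tested, and without both libraries the log2 difference of Atoh1 was -1.25.

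Creb3l1 measured 122.4, 110.2, 92.7 and 101.7 FPKM across Klebsiella replicates 1 to 4, against 122.7, 84.9, 113.6 and 61.4 FPKM across Lactobacillus replicates 1 to 4. The groups overlapped, with Lactobacillus replicates 2 and 4 below every Klebsiella library and Lactobacillus replicate 1 just above them all. Its log2 difference came to 0.20 (SE 0.21, 95% interval -0.27 to 0.67, limma adjusted p 0.840). It was 0.0054 without Lactobacillus replicate 4 and 0.34 without Lactobacillus replicate 1.

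Of the endoplasmic reticulum proteins, Ern2 varied least of the 10 genes, with a 1.56-fold range. It measured 50.8, 56.1, 41.7 and 51.4 FPKM across Klebsiella replicates 1 to 4, against 44.1, 39.7, 36.0 and 36.0 FPKM across Lactobacillus replicates 1 to 4. Only Klebsiella replicate 3 fell among the Lactobacillus libraries. The SD was 6.03 FPKM in Klebsiella and 3.87 FPKM in Lactobacillus recipients (n = 4 each), and the log2 difference was 0.35 (SE 0.11, 95% interval 0.099 to 0.61, limma adjusted p 0.774). Its ubiquitous relative Ern1 was at 27.97 to 34.4 FPKM in Klebsiella and 28.7 to 34.7 FPKM in Lactobacillus libraries, so that log2 levels differed by 0.034 (SE 0.096). Whether the differences of Ern2 and Ern1 differ from each other was not tested.

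Agr2 measured 1581, 1627, 1572 and 1327 FPKM across Klebsiella replicates 1 to 4, against 1339, 1468, 1079 and 839 FPKM across Lactobacillus replicates 1 to 4. It was lowest in the same libraries as Spdef, Lactobacillus replicates 3 and 4. The log2 difference was 0.40 (SE 0.18, 95% interval -0.012 to 0.81, limma adjusted p 0.774), and 0.24 without Lactobacillus replicate 4.

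Among the secreted products, Clca1 had the widest range of the 10 genes, 7.73-fold. It measured 4971, 3575, 3378 and 7474 FPKM across Klebsiella replicates 1 to 4, against 5799, 967, 2791 and 4501 FPKM across Lactobacillus replicates 1 to 4. The groups overlapped, and the low library was Lactobacillus replicate 2. Its log2 difference came to 0.67 (SE 0.53, 95% interval -0.53 to 1.87, limma adjusted p 0.799), and 0.14 without that library. The other 7 Clca genes were far lower, at 171.9 FPKM or less in every library.

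Fcgbp measured 1212, 1101, 895 and 1475 FPKM across Klebsiella replicates 1 to 4, against 1477, 388, 988 and 795 FPKM across Lactobacillus replicates 1 to 4. It had its low value in the same library as Clca1, and the groups overlapped. The log2 difference was 0.49 (SE 0.36, 95% interval -0.33 to 1.32, limma adjusted p 0.791), and 0.13 without Lactobacillus replicate 2. That library was 1 of the 2 with high Hoxb6 named above. In the other, Klebsiella replicate 3, Clca1 and Fcgbp were the lowest of the Klebsiella libraries but within the range of the Lactobacillus libraries. Without both libraries the log2 differences were 0.29 for Clca1 and 0.25 for Fcgbp.

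Tff3 measured 1235, 2012, 1885 and 1406 FPKM across Klebsiella replicates 1 to 4, against 1786, 1174, 1931 and 3154 FPKM across Lactobacillus replicates 1 to 4. Lactobacillus replicate 4 stood highest, in contrast to its low Spdef and Agr2. On the log2 scale the difference was -0.24 (SE 0.29, 95% interval -0.90 to 0.43, limma adjusted p 0.865), and 0.0077 without that library. The summed level of 6 markers of absorptive colonocytes, the other main cell of the surface epithelium, was also highest there, at 2889 FPKM against 523 to 1537 FPKM in the other libraries. Car4, at 1517 FPKM, and Slc26a3, at 630.4 FPKM, made up most of that sum, whereas Krt20 was higher in 4 other libraries and Slc5a8 was slightly higher in Lactobacillus replicate 3. The part of this in the Tff3 values was not tested.

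Spink4 measured 3192, 1255, 2239 and 1863 FPKM across Klebsiella replicates 1 to 4, against 2979, 1786, 1576 and 1728 FPKM across Lactobacillus replicates 1 to 4. Replicate 1 was highest in both groups, and the groups overlapped. The log2 difference was 0.051 (SE 0.30, 95% interval -0.63 to 0.74, limma adjusted p 0.982). Reg4, which marks the deep crypt secretory cells of the colon, was highest in the same libraries, at 1088 and 1073 FPKM, and lowest in Klebsiella replicate 2, at 174.8 FPKM, where Spink4 was also lowest. The match did not hold throughout: Klebsiella replicate 3 had the next lowest Reg4, 201.3 FPKM, and the third highest Spink4.

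Klk1 measured 1142, 1158, 1553 and 901 FPKM across Klebsiella replicates 1 to 4, against 1031, 1199, 1360 and 1680 FPKM across Lactobacillus replicates 1 to 4. The groups overlapped throughout, and the log2 difference was -0.15 (SE 0.20, 95% interval -0.60 to 0.30, limma adjusted p 0.876). It was -0.03 without Klebsiella replicate 4 or without Lactobacillus replicate 4, and -0.29 without Klebsiella replicate 3. The pancreas also makes KLK1, and 6 markers of pancreatic acinar cells summed to 953.6 FPKM in Klebsiella replicate 2 and 287.7 FPKM in Lactobacillus replicate 3, and to at most 6.44 FPKM elsewhere. Klk1 was the second highest of its group in each of these libraries, and its log2 difference was -0.13 without them; the part of pancreatic RNA in the Klk1 values was not tested. On GRCm38 the gene lies on chromosome 7 from 44225360 to 44229618 on the plus strand and overlaps the pseudogene Gm10109 on the minus strand, which reached at most 1.09 FPKM. The 23 Klk1b genes and pseudogenes, close relatives in the same family, reached at most 2.04 FPKM; how reads matching several copies were counted is not known.

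The remaining 9 genes overlap no other annotated gene. On GRCm38, Atoh1 lies on chromosome 6 from 64729125 to 64731245, Spdef on chromosome 17 from 27714352 to 27728955 and Tff3 on chromosome 17 from 31125306 to 31129646. Ern2 lies on chromosome 7 from 122169893 to 122186207, Fcgbp on chromosome 7 from 28071236 to 28120862 and Agr2 on chromosome 12 from 35992907 to 36004087. Creb3l1 lies on chromosome 2 from 91982328 to 92024502, Clca1 on chromosome 3 from 145003817 to 145032776 and Spink4 on chromosome 4 from 40920052 to 40931395. Spdef, Tff3, Ern2, Creb3l1 and Clca1 are on the minus strand and the other 4 on the plus strand.

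Levels were next set against references in the same library, to ask whether a gene moved apart from a set of epithelial genes or from Muc2, the goblet cell mucin. Against the mean log2 value of 6 epithelial genes (Epcam, Cdh1, Krt8, Krt18, Cldn7 and Vil1) the median of all genes moved to -0.23. These 6 were uneven among themselves. Their log2 differences on FPKM as deposited were 0.62 for Krt18, 0.27 for Vil1 and 0.19 for Krt8. They were 0.15 for Cldn7, 0.074 for Epcam and -0.052 for Cdh1. Krt18 thus weighed most in the mean that was taken off every gene. Log2 differences were then 0.67 for Spdef (SE 0.29, limma adjusted p 0.379), 0.14 for Ern2, 0.19 for Agr2 and -0.010 for Creb3l1. None of the 10 genes and 0% of all genes passed, and before adjustment 1 of the 10, Spdef, and 13.0% of all genes had a p under 0.05.

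Muc2 measured 2611, 4139, 4305 and 2381 FPKM across Klebsiella replicates 1 to 4, against 2396, 2858, 1290 and 1159 FPKM across Lactobacillus replicates 1 to 4. It was low in the libraries that were low in Spdef, and its log2 difference was 0.86 (SE 0.34, limma adjusted p 0.774). The level of Spdef per Muc2 overlapped between the groups, at 0.0210 to 0.0325 in Klebsiella and 0.0240 to 0.0286 in Lactobacillus libraries, with a log2 difference of 0.020 (SE 0.45, 95% interval -0.86 to 0.90). The level of Atoh1 per Muc2 was 0.00316, 0.00314, 0.0127 and 0.00887 in Klebsiella replicates 1 to 4 and 0.0110, 0.0115, 0.0308 and 0.0268 in Lactobacillus replicates 1 to 4.

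Relative to Muc2, Atoh1 was lower in Klebsiella recipients by limma, with a log2 difference of -1.61 (SE 0.45, adjusted p 0.0379), and it was the only one of the 10 to pass, beside 1.20% of all genes. The median of all genes was -0.88 on this scale, and 40.9% of all genes had an unadjusted p under 0.05. Subtracting Muc2 lowers the log2 difference of every gene by that of Muc2, 0.86. Every gene carries the spread of Muc2 here, so limma gave nearly the same SE to all 10 genes, 0.45 to 0.47. In this fit limma treated that spread as known, so its p-values leave out the uncertainty of a spread estimated from 4 mice per group. The groups overlapped for this ratio, its two-sided exact permutation p was 0.0857 (4 against 4), and the call ended when Klebsiella replicate 1 or 2 or Lactobacillus replicate 3 or 4 was left out (limma adjusted p 0.145 to 0.319). Tff3 and Klk1 per Muc2 had log2 differences of -1.10 and -1.01 and did not pass (limma adjusted p 0.121 for each).

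**Figure D2:**
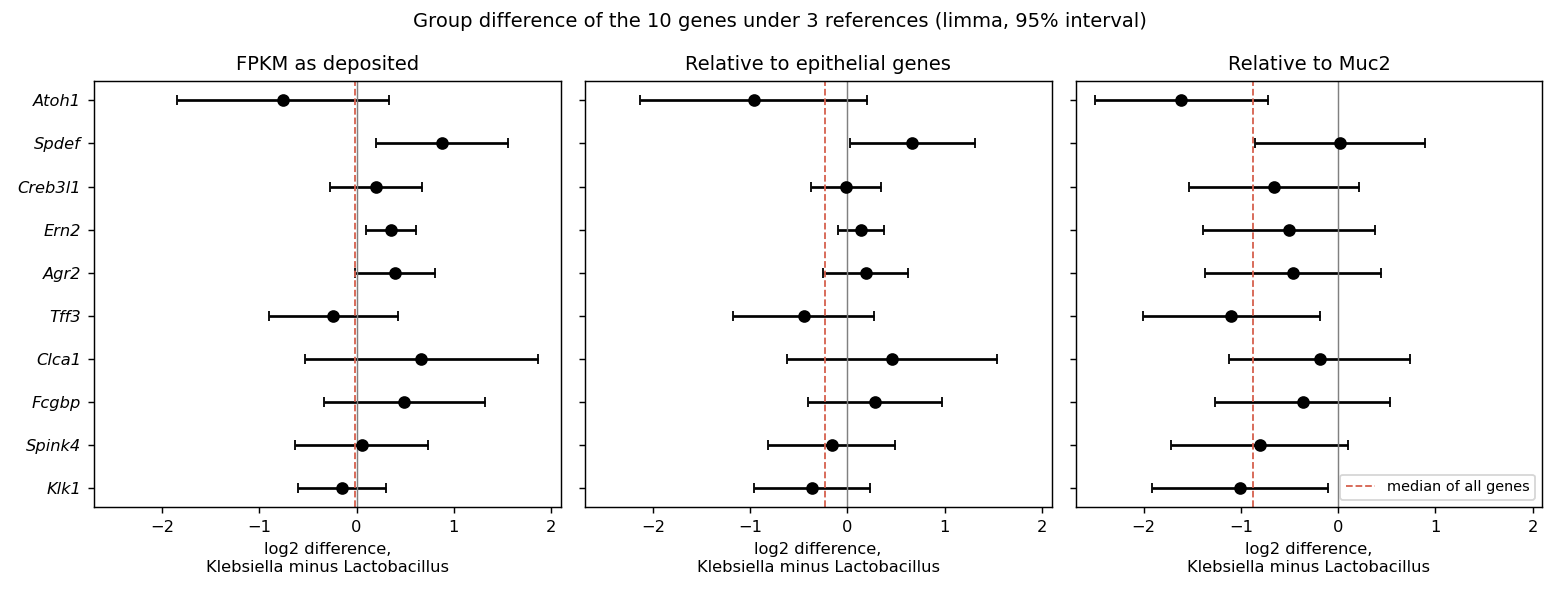
Log2 difference between Klebsiella and Lactobacillus recipients (horizontal axis) with its 95% interval from limma for each of the 10 genes, on FPKM as deposited, relative to 6 epithelial genes and relative to Muc2; the dashed line is the median of all genes. The interval of Spdef lies above 0 in the first panel, at 0.20 to 1.56, and is centred near 0 relative to Muc2.

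The 10 genes did not vary as 1 block over the libraries. Of their 45 pairs, 25 had a positive and 20 a negative Pearson r over the 8 libraries. Spdef and Agr2 were the only pair with an adjusted p under 0.05 by an exact permutation test (adjusted p 0.0424 over the 45 pairs). Since Spdef fell into a low level in Lactobacillus replicates 3 and 4 and a high level in the other libraries, no pooled r is given. The p-value above is that of the pooled r and carries the same limit, and its permutations took no account of the recipient groups. Within the other 6 libraries r was 0.71 (exact permutation p = 0.119) and Spearman's rho was 0.54 (exact permutation p = 0.297). The relation thus did not pass without the 2 low libraries, but 6 libraries are too few to show that it is absent among them.

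Clca1 and Fcgbp had r = 0.92 over the 8 libraries (exact permutation p = 0.00491, adjusted p 0.110 over the 45 pairs) and rho = 0.81 (exact permutation p = 0.0218). Without Klebsiella replicate 4 and Lactobacillus replicate 2, the libraries farthest from the median of Clca1, r was 0.56 (exact permutation p = 0.244). This relation too was weaker without a few libraries, and those left are too few to show that it is absent. After the group means were removed r was 0.91. Atoh1 and Ern2 had the most negative value, r = -0.76 (exact permutation p = 0.0264, adjusted p 0.297) with rho = -0.76, and r = -0.56 without Klebsiella replicates 1 and 2.

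**Figure D3:**
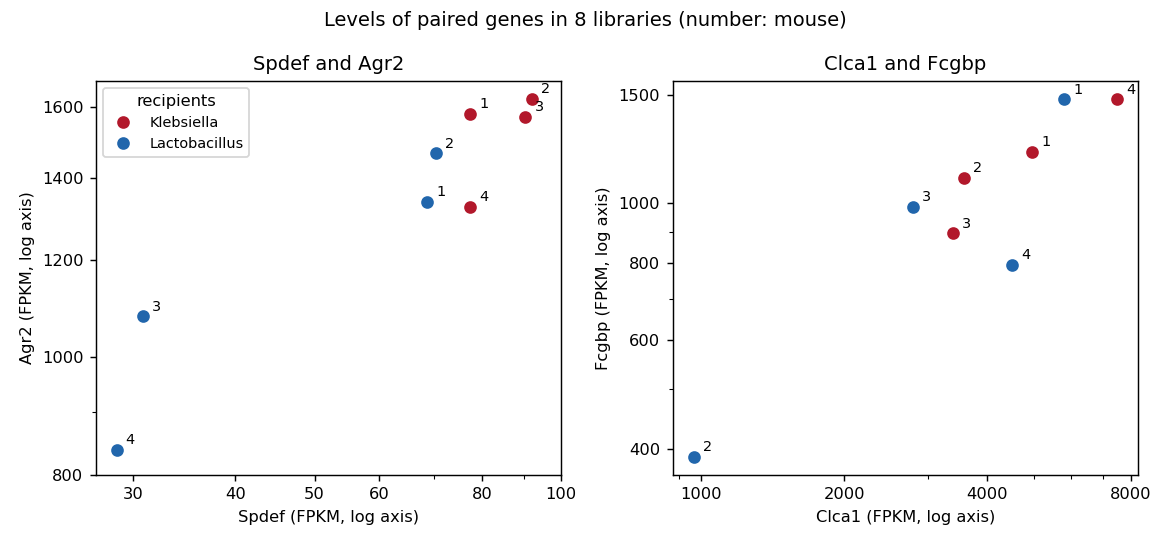
Levels of Spdef against Agr2 and of Clca1 against Fcgbp (FPKM, log axes) in the 8 libraries, coloured by recipient group and numbered by mouse. Lactobacillus replicates 3 and 4 sit apart at low Spdef and Agr2, and Lactobacillus replicate 2 sits apart at 967 FPKM of Clca1 and 388 FPKM of Fcgbp.

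Set side by side, the profiles show that different genes were low in different libraries. Klebsiella replicate 1 was low in Atoh1 and Tff3 and high in Spink4. Lactobacillus replicate 2 was low in Clca1, Fcgbp and Tff3 but not in Spdef or Muc2. Lactobacillus replicate 4 was low in Spdef, Agr2 and Creb3l1 and highest in Tff3 and Klk1. Retnlb, a goblet cell product induced by bacteria and looked at after its values had been seen, was at 660.1 FPKM in Klebsiella replicate 1 and 541.3 FPKM in Lactobacillus replicate 1, the libraries of highest Spink4. The match did not hold throughout: Retnlb was at 466.4 FPKM in Klebsiella replicate 4 and 273.0 FPKM in Klebsiella replicate 3, where Spink4 was at 1863 and 2239 FPKM. Retnlb was at 20.6 FPKM in Klebsiella replicate 2 and 21.3 FPKM in Lactobacillus replicate 4.

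**Figure D4:**
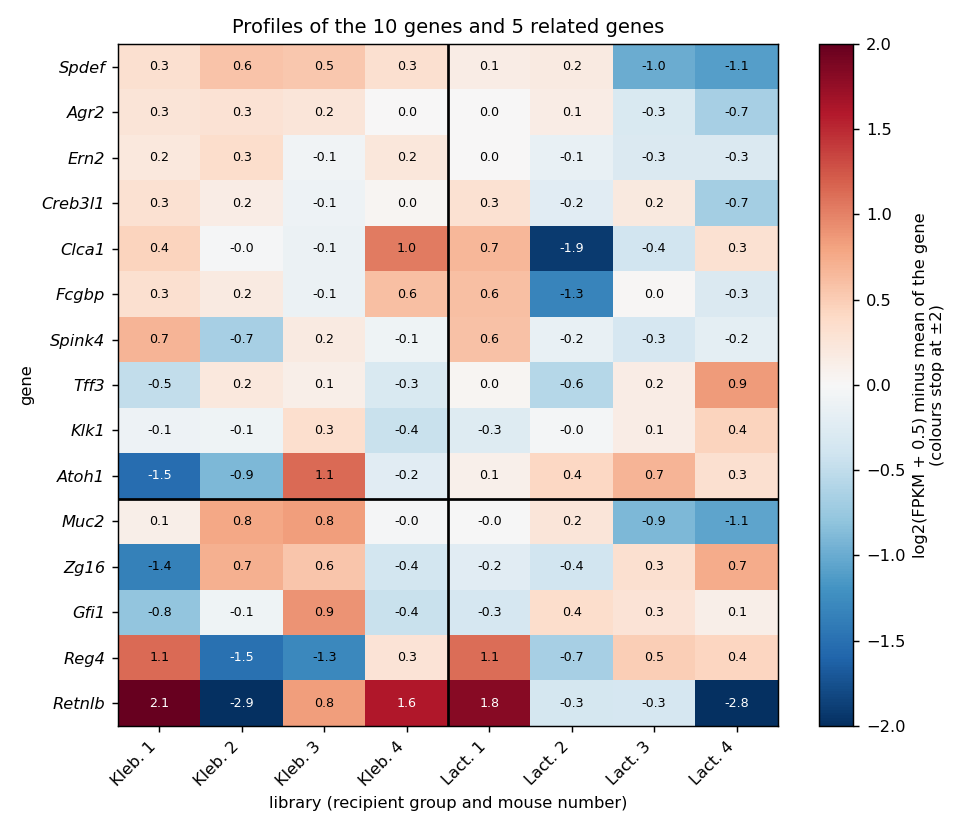
Log2(FPKM + 0.5) of each gene minus its mean over the 8 libraries (colour and printed value), with the 10 genes above the horizontal line and Muc2, Zg16, Gfi1, Reg4 and Retnlb below it. Spdef, Agr2 and Muc2 are low in Lactobacillus replicates 3 and 4, and Clca1 and Fcgbp are low in Lactobacillus replicate 2, with Clca1 at -1.92.

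Genes with the closest profiles were sought over the 8 libraries by the mean absolute difference of centred log2 values, among genes whose own range was at least 0.5 times that of the gene in question. For Spdef these were Stc2 and Slc2a10, at 0.094 and 0.14. For Creb3l1 they were Lrp5, a Wnt co-receptor, and Cdx1, an intestinal homeobox gene, at 0.046 and 0.061. For Clca1 they were Fcgbp and Rnf183, at 0.30 and 0.32, and for Fcgbp they were Clca2, at a mean of only 0.847 FPKM, and Sowahb, at 0.21 each. For Klk1 they were Hnf4g, a nuclear receptor of gut epithelium, and Gm45495, and for Ern2 they were Syna and Runx1. For Agr2 they were 1700066B19Rik and Homer3, for Tff3 Terc and Gm15730, for Spink4 Gm15387 and Hmgb1-ps2, and for Atoh1 Gm13421 and Zfp273. Like Clca2, some of these were near the filter of 0.5 FPKM, so their profiles carry much counting error. Means were 0.542 FPKM for Rnf183, 0.616 for Syna, 0.719 for Gm15730 and 0.893 for Terc. The closest genes to Atoh1, at 0.31 each, were farther from it than those of most others of the 10. This distance is not scaled to the range of a gene, which was 2.66 log2 units for Atoh1 and 2.95 for Clca1. Ranges of the others lay between 0.63, for Ern2, and 1.93, for Fcgbp.

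The rest of the goblet cell programme was described with 3 lists: 17 genes of secretory fate and Notch control, 19 other goblet cell products and 31 genes of the endoplasmic reticulum secretion machinery. All were tested, and 0 were higher and 0 lower in each list at an adjusted p under 0.05 (limma), as for all genes. The median log2 differences were 0.089, 0.22 and 0.19, against -0.017 over all genes and 0.28 for the 10 genes. All 31 genes of the secretion machinery had a difference above 0 on FPKM as deposited. Relative to the 6 epithelial genes 12 of 31 did, and their median was -0.02. On that scale the other medians were -0.12 for the fate list and 0.0084 for other goblet cell products, against -0.23 over all genes. The change of scale lowered every gene by the same amount, so the distance of each list from all genes did not change.

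In the fate list, the genes of smallest unadjusted p were Cdx2, an intestinal homeobox factor, at 65.3 against 40.4 FPKM, Foxa2 at 34.6 against 47.4 FPKM and Foxa3 at 32.5 against 23.9 FPKM (means of Klebsiella and Lactobacillus recipients, n = 4 each, limma adjusted p 0.774 for each). Cdx2 was lowest in the libraries low in Spdef, at 30.3 and 24.5 FPKM in Lactobacillus replicates 3 and 4. Among other goblet cell products they were Slc12a8, a transporter, at 38.3 against 26.5 FPKM, Muc2, described above, and Tpsg1, a transmembrane tryptase, at 58.4 against 44.0 FPKM.

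In the secretion machinery they were Xbp1, the transcription factor activated by IRE1 splicing, at 240.9 against 185.3 FPKM, Sec24d, a coat protein of export vesicles, at 56.7 against 45.3 FPKM, and Serp1 at 60.9 against 48.0 FPKM. The log2 difference of Xbp1 was 0.38 (SE 0.10, 95% interval 0.15 to 0.61, limma adjusted p 0.774), and its groups did not overlap, at 218.5 to 262.5 FPKM in Klebsiella and 164.7 to 210.8 FPKM in Lactobacillus libraries. Relative to the 6 epithelial genes the log2 difference of Xbp1 was 0.17 (95% interval -0.08 to 0.42). On FPKM as deposited the groups did not overlap for 2 of the 31 genes, Xbp1 and Sec24d, and for 2.99% of all genes. FPKM counts all Xbp1 transcripts and does not tell the spliced form from the unspliced one.

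**Figure D5:**
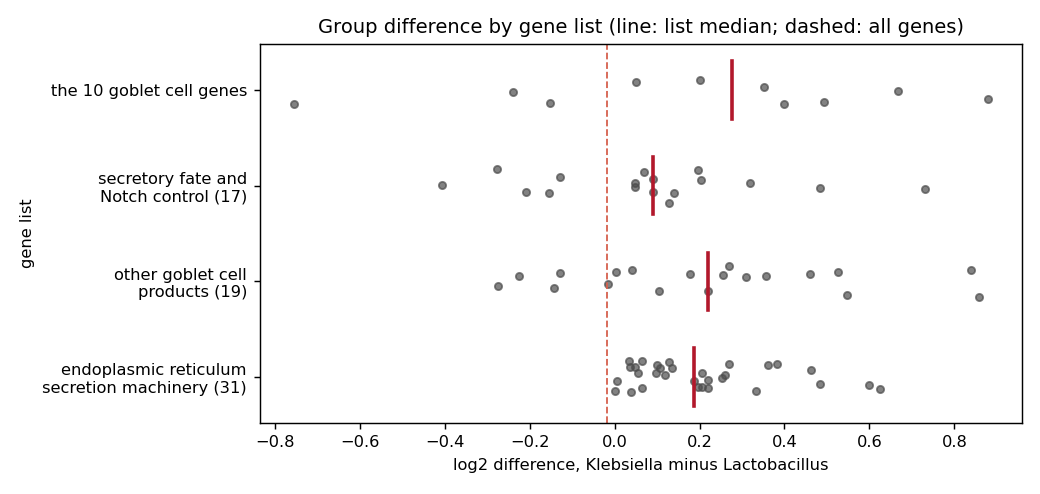
Log2 difference between Klebsiella and Lactobacillus recipients (horizontal axis) for each gene of the 10 goblet cell genes and of 3 related lists (vertical axis; points are spread vertically for legibility), with the list median as a line and the median of all genes dashed. The medians are 0.28, 0.089, 0.22 and 0.19 from top to bottom, and the points of the secretion machinery all lie above 0. Relative to epithelial genes 12 of 31 did, with a list median of -0.02 against -0.23 over all genes. That scale lowers every gene by the same amount.

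Markers of other cell types were compared as summed FPKM. Of 14 lists, tuft cells (19.5 to 25.3 against 12.4 to 16.6 FPKM) and adipocytes (1.22 to 10.1 against 13.3 to 116.6 FPKM) did not overlap between Klebsiella and Lactobacillus recipients (two-sided exact permutation p = 0.0286 each, adjusted p 0.200 over the 14 lists). Enteroendocrine markers, from another secretory lineage that needs ATOH1, lay at 366.3 to 473.6 and 339.0 to 454.8 FPKM (two-sided exact permutation p = 0.743, 4 against 4). The part of the tuft and adipocyte differences in the values of the 10 genes was not tested.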

How the data were processed

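RNA from the intestine of 8 mice, 1 library each, was compared between 4 Klebsiella and 4 Lactobacillus recipients, grouped by the treatment label. The authors deposited FPKM values per gene, and the submitters' processing notes name DESeq2 1.10.1, HTSeq 0.6.0, STAR 2.5.1b and CASAVA without saying what each did. The build, not given in the sources used here, is unknown. The authors also deposited counts of reads per library (40455910 to 55447220 after their filter) and, per the file headers, the percent of bases at quality 30 (90.7% to 94.6%) and of GC bases (49.4% to 51.2%). None of the 10 genes was among 15 genes in the authors' deposited table of differing genes. Symbols for 49326 of 49585 identifiers came from GENCODE M21, promoters from RefSeq on GRCm38.p6, matched by symbol for 5 of 10 genes.

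Values were tested as log2(FPKM + 0.5), which understates changes of low genes, for genes of mean FPKM at least 0.5, with limma 3.58.1 in R 4.3.3 (mean-variance trend, two-sided, Benjamini-Hochberg over all genes, adjusted p under 0.05). Whole reads behind the FPKM were recovered from their exact ratios (relative tolerance 1e-12) for all 26963 genes detected in 2 libraries or more; whether 1 unit is a read or a pair is not known, and they cover counting error only. Recovery and limma were tested on simulated data. The genes named are the 10, and in each list the 3 of smallest unadjusted p with Muc2, Ern1 and Xbp1; those of closest profile followed a fixed rule. Gfi1, Reg4, Retnlb and Zg16 were added after their values were seen. The 10 genes, the lists and the settings were chosen with earlier results of these data known. The labels give no cage or litter, so p-values measure only the spread between these mice. Python 3.11.15 with scipy 1.17.1 was used for exact tests.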

Additional observations from a re-analysis of the deposited data

Results flagged for a closer look

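Spink4 in Lactobacillus replicate 1, at 2979 FPKM, stood apart from the other Lactobacillus libraries, at 1576 to 1786 FPKM. Its gap to the nearest of them was 0.850 of the range of the group, above Dixon's 95% limit for 4 samples. This was 1 of 20 groups examined, and chance gives about 1 in 20. Klebsiella replicate 1 was nearly as high, at 3192 FPKM.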

How the results depend on the processing

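Under 22 other settings (pseudocounts, filters, rescalings, weights, a replicate block, voom on recovered reads, and libraries left out) 0 of the 10 genes and 0 genes in all passed. The median log2 difference of the 10, 0.28, was 0.066 relative to epithelial genes (-0.23 over all genes) and 0.13 to 0.37 with 1 library left out. Genes at an unadjusted p under 0.05 (1024) were 1825 with array weights, 1693 with log2 Hoxd13 as a covariate, 2185 relative to epithelial genes, 431 without Klebsiella replicate 2 and Lactobacillus replicate 3, which were high in Ctrb1, and 572 to 2009 with 1 library left out. Of the 10, the number at an unadjusted p under 0.05 (2) was 0 without that pair, 4 without Klebsiella replicate 3 and Lactobacillus replicate 2, high in Hoxb6, 4 without Lactobacillus replicate 1 and 1 relative to epithelial genes.

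The sign changed for Tff3 with array weights (0.018), for Creb3l1 relative to epithelial genes (-0.010) and for Spink4 with array weights (-0.072), relative to epithelial genes (-0.16) and without the Hoxb6 pair (-0.040). With 1 library left out, Tff3 ranged from -0.47 to 0.0077, Spink4 from -0.17 to 0.28, Atoh1 from -1.26 to -0.37, Creb3l1 from 0.0054 to 0.34, Clca1 from 0.14 to 1.00, Fcgbp from 0.13 to 0.78, Klk1 from -0.29 to -0.03, Spdef from 0.66 to 1.09, Ern2 from 0.29 to 0.44 and Agr2 from 0.24 to 0.51. The causes were not tested. Relative to Muc2, 1 of the 10 passed, 0 relative to epithelial genes, and 0 to 4 with 1 library left out. The count of 4, without Lactobacillus replicate 2, came with 9793 of all genes called.

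The mouse numbers gave no clear pairing of the groups: correlations of deviations were 0.19, -0.10, -0.059 and -0.16 for numbers 1 to 4. Klebsiella replicate 1 did correlate best with Lactobacillus replicate 1, and these correlations were not tested. With a replicate block 0 of the 10 passed, and 1027 genes had an unadjusted p under 0.05. The 2 omitted pairs and the covariate were chosen after seeing the data. At least 276 reads lay behind each of the 10 genes in each library, and the spread between the 4 mice of a group limits precision.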
